A study of Homo sapiens with 7 samples.

Results

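Broad domains of H3K4me1, the monomethylated lysine 4 of histone H3, were defined in SW1990, an established line of human pancreatic cancer cells. The intervals of the NC and the KMT2D-KD H3K4me1 lists were pooled, those lying at most 1000 bases apart were merged, and the merged regions spanning at least 8000 bases on hg38 were kept. This gave 493 broad domains of 65908 merged regions (0.748%). The domains were chosen by the measured intervals of both conditions, so their span, coverage and enrichment are given as a description, without a test. NC cells carried a negative control shRNA, KMT2D-KD cells carried an shRNA against the H3K4 methyltransferase KMT2D, and both were the same cell line. The series held 7 libraries, of which 6 had an interval list (KMT2D, EBF2 and H3K4me1 in each condition) and the other was an input. Each target had 1 library in each condition, so no difference below has a replicate check. How far KMT2D itself fell in KMT2D-KD cells was not analysed here.

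H3K4me1 is placed mainly by KMT2C and KMT2D and is known as a mark of enhancers, both active and primed, and of the flanks of active promoters. Most marked elements are short, and clusters of neighbouring elements are often found at genes that are prominent in a cell type. Within an active element, transcription factors occupy stretches depleted of nucleosomes, and the modified nucleosomes flank them.

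An interval is a stretch of DNA called as enriched over the input by the authors. The NC H3K4me1 list held 64843 intervals and the KMT2D-KD list 92135, at a recovered depth of 9.89 and 9.29 fragments per kb of genome. This depth is the lowest background recovered in a list divided by the width of its narrowest interval, and was not counted from reads. Its part in the lengths of the lists was not tested. The series held 1 input, and the condition of its cells is not stated, so a fold over input includes any difference in copy number between those cells and the ones profiled.

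The 493 domains spanned 5.42 Mb, which was 6.86% of the bases spanned by all merged regions. They held 8.42% of the bases covered in NC and 7.45% of those covered in KMT2D-KD. The median domain spanned 9800 bases, with a range from 8005 to 40021. It held 7 NC and 7 KMT2D-KD intervals, and 76.2% of it was covered by the lists together. The longest uncovered stretch of a domain had a median of 765 bases. With respect to the label, the domains were mostly clusters of narrow intervals and seldom single broad blocks. Only 6 of the 493 held an interval of at least 8000 bases, 24 were covered over at least 90% of their span, and 1 was a single unbroken stretch. That stretch lay in intron 1 of PACS1, which encodes a sorting protein of the trans-Golgi network, where 1 KMT2D-KD interval of 8618 bases faced 4 NC intervals covering 5681 bases. The widest interval of all, 10212 bases in KMT2D-KD, lay in intron 2 of BCAR3, an adaptor of integrin signalling. The widest NC interval, 9734 bases, lay in LGR4, an R-spondin receptor of the Wnt pathway.

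Sequences from uncovered stretches of 5 of the widest domains are shown as examples. Over all domains together, the binding sequence of AP-1 was more frequent in uncovered than in covered stretches, as described further below. Each sequence shown comes from the uncovered stretch of its domain that held the most AP-1 sequences. It is read on the plus strand of hg38, and capitals mark the AP-1 sequence TGANTCA, which reads the same on both strands. AP-1 is a family of FOS and JUN dimers that binds at many enhancers.
BASP1 domain, chr5:17249456-17249567: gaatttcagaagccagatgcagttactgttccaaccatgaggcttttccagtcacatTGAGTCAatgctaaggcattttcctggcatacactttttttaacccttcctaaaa
TEAD1 domain, chr11:12693746-12693866: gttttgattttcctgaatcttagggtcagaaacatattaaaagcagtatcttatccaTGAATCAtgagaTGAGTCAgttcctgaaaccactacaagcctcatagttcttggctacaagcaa
PACS1 domain, chr11:66113256-66113376: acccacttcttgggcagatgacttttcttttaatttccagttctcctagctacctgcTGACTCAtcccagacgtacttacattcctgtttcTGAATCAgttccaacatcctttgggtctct
OGDH domain, chr7:44638224-44638344: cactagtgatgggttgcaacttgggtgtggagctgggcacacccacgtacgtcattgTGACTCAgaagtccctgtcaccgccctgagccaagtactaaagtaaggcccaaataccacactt
domain nearest DUSP5, chr10:110408440-110408560: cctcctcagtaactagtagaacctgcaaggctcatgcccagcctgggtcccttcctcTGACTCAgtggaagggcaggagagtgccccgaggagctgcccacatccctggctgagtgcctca
The TEAD1 stretch was 587 bases long and held 3 AP-1 sequences, of which 2 are in the part shown. The PACS1 stretch of 287 bases held 2. The BASP1, OGDH and DUSP5 stretches held 1 each, in 243, 217 and 386 bases. All uncovered stretches together held 5 AP-1 sequences in the TEAD1 domain (16 stretches), 4 in PACS1 (9) and 3 in DUSP5 (15). They held 2 in BASP1 (16) and 1 in OGDH (10). The stretches shown were picked for their AP-1 sequences, so the difference from covered stretches cannot be read from them.

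The widest domain spanned 40021 bases at chr5:17220194-17260214 in intron 1 of BASP1, a membrane-bound signalling protein. It was covered over 29370 bases by 24 intervals in NC and over 32172 bases by 20 intervals in KMT2D-KD. Its input background was 2.46 times the lowest of the list in both conditions, a value that is taken up again at the end. The second widest spanned 30388 bases at chr11:12679357-12709744 in TEAD1, a DNA-binding partner of YAP in the Hippo pathway. In TEAD1, NC intervals covered 21772 bases and KMT2D-KD intervals 23991, so both of the widest domains were covered 1.1-fold more in the knockdown. The domain in WDR25, nearest to the 5′ end of the tryptophanyl-tRNA synthetase gene WARS1, spanned 29440 bases, with 15324 covered in NC and 19148 in KMT2D-KD. PHF20, a reader of methylated histones, held a domain of 27420 bases that had the highest summits of all 493, at 11.9-fold over input in NC and 16.7-fold in KMT2D-KD. The PACS1 domain of 25259 bases was covered over 14182 bases in NC and 19797 in KMT2D-KD. Further wide domains lay 21303 bases from the 5′ end of PPP1R3C, a regulator of glycogen synthesis, and 67026 bases from that of DUSP5, a phosphatase acting on ERK. Of the 10 widest domains, 9 were covered more in KMT2D-KD. The exception had 12562 bases in NC and 10242 in KMT2D-KD. It overlapped S100A10, an annexin partner, and lay 2242 bases from the 5′ end of that gene.

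**Figure D1:**
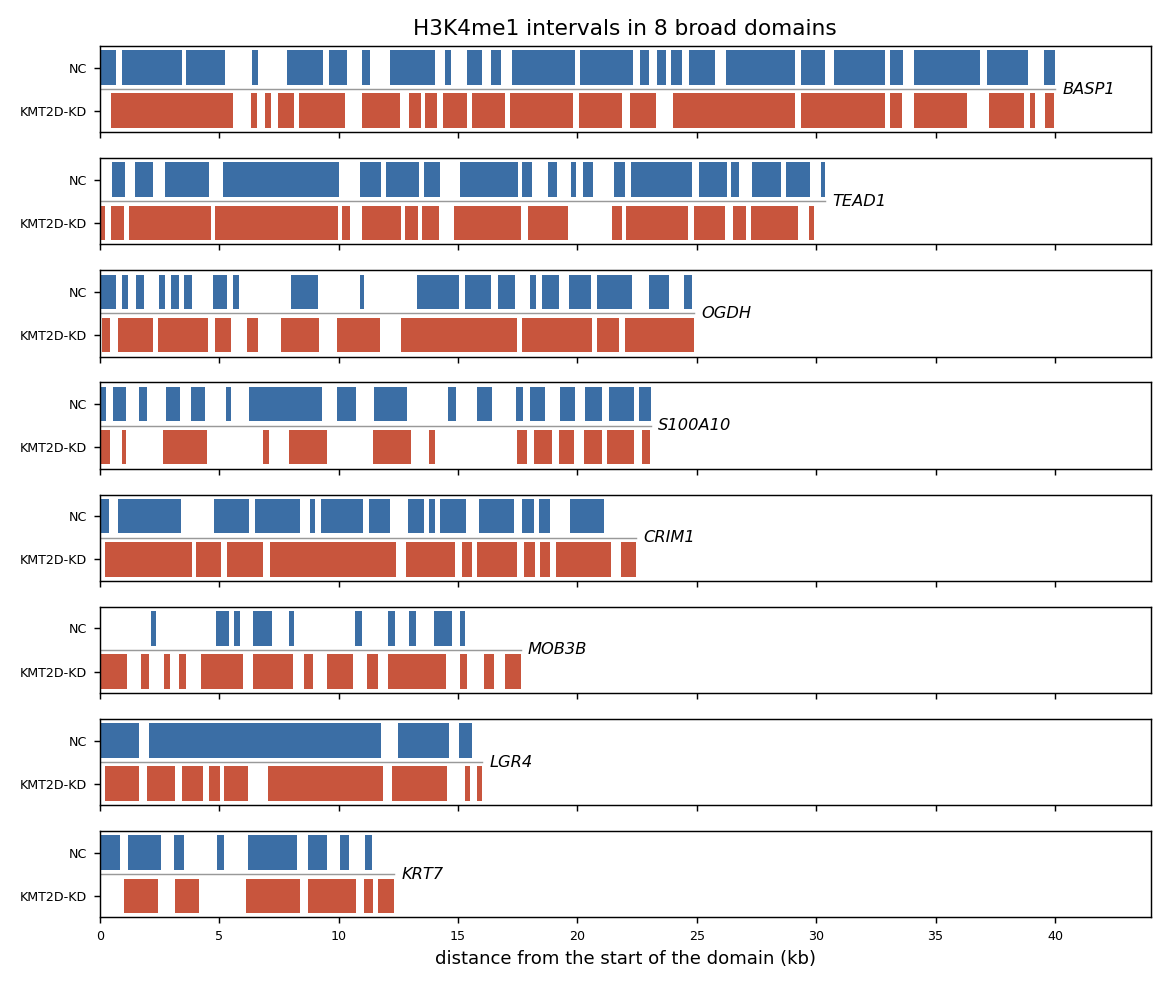
H3K4me1 intervals (blocks) of NC (blue) and KMT2D-KD (red) in 8 domains, plotted as distance from the start of the domain in kb. The grey line is the domain, named by its host gene or, for S100A10 and KRT7, by the gene with the nearest 5′ end. Each domain is a row of separate intervals, with longer KMT2D-KD blocks in OGDH, CRIM1 and MOB3B and a 9734-base NC block in LGR4.

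To describe how the coverage differed between the conditions, the bases under intervals were summed. NC intervals covered 2.72 Mb of the domains and KMT2D-KD intervals 3.7 Mb, a ratio of 1.36 (log2 0.45). NC had 3525 intervals in the domains and KMT2D-KD had 3657, which is a log2 ratio of 0.05, and the mean width was 771 bases in NC against 1010 in KMT2D-KD. Over the whole lists, NC had 64843 intervals on 32275411 bases and KMT2D-KD had 92135 on 49711564. The median width there was 369 bases in NC and 375 in KMT2D-KD. KMT2D-KD covered more bases in 456 domains (92.5%) and fewer in 37. It also covered more in 71.4% of all merged regions and in 87.0% of those of 4 to 8 kb. In 251 domains KMT2D-KD covered more bases with as many or fewer intervals, a count that was not made for other merged regions. In the OGDH domain, for example, 19 NC intervals covered 12553 bases and 11 KMT2D-KD intervals covered 20023. OGDH encodes a subunit of the 2-oxoglutarate dehydrogenase complex. The paper reports that H3K4me1 signal at start sites and promoters was lower in KMT2D-KD cells. Bases under called intervals are another measure, taken here in domains mostly away from 5′ ends, and signal was not compared. Shares below that carry a 95% interval have an exact binomial one, which covers counting error only.

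The bases covered only in KMT2D-KD lay mainly inside the extent of the NC intervals. They came to 1420 kb, of which 77.9% lay between the outermost NC intervals of their domain and 22.1% beyond them. The bases covered only in NC came to 429 kb and were placed alike, with 81.1% between the outermost KMT2D-KD intervals and 18.9% beyond. Of the bases covered in NC, 84.2% were also covered in KMT2D-KD, and of those covered in KMT2D-KD, 61.8% were also covered in NC. The same merging on a single list gave 107 broad domains from NC and 340 from KMT2D-KD. Of the 493 pooled domains, 82 were broad in both lists alone, 257 in KMT2D-KD alone only, 24 in NC alone only, and 130 reached 8000 bases only when the lists were pooled. The highest summit of a domain had a median of 6.66-fold over input in NC and 8.47-fold in KMT2D-KD, and it was higher in KMT2D-KD in 443 domains (89.9%), against 67.6% of the 31214 merged regions with intervals of both lists and 83.0% of those of 4 to 8 kb.

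The conditions were also compared by a difference of at least 1.5-fold in covered bases, which is described without a test because coverage chose the domains. KMT2D-KD covered at least 1.5-fold more bases in 185 of the 493 domains (37.5%). The share was 48.6% among the 18750 merged regions with at least 1000 covered bases, and 44.8% among the 2812 regions of 4 to 8 kb. NC covered at least 1.5-fold more in 1 domain (0.203%), against 7.44% of the 18750 regions and 1.28% of those of 4 to 8 kb. A longer region averages over more intervals, and the part of span in these shares was not tested. The largest excess of KMT2D-KD was at OGDH, with 7470 bases more. DOCK5, an activator of Rac, had 5262 bases in NC against 12719 in KMT2D-KD, or 2.42-fold. MOB3B, of the MOB family of kinase regulators, had 3820 bases in NC and 11224 in KMT2D-KD, or 2.94-fold. The domain nearest SERP2 had 4742 and 11763 bases. In the opposite direction, S100A10 was followed by a domain in the gene record ENSG00000285218 on chromosome 3, with 5129 bases in NC against 3005 after knockdown, the 1 domain past 1.5-fold. LGR4 had 14077 and 12470 bases, SEMA3C, a secreted semaphorin, 6677 and 5075, and ANO2, a chloride channel, 8869 and 7292.

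**Figure D2:**
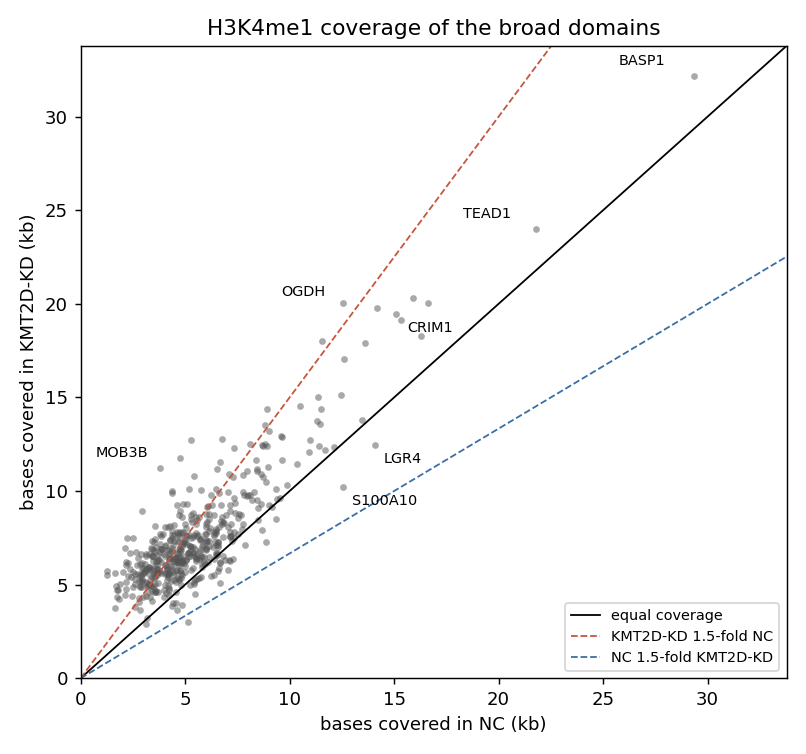
Bases covered by H3K4me1 intervals in NC (x axis, kb) and in KMT2D-KD (y axis, kb), 1 point per domain, 1 library per condition. The solid line marks equal coverage and the dashed lines 1.5-fold differences; 456 of the 493 points lie above the solid line, and S100A10 is the nearest gene of its domain.

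Across span classes, the domains continued a trend that began in short regions. The log2 ratio of covered bases was 0.84 in merged regions under 1 kb, 0.64 at 1 to 2 kb, 0.57 at 2 to 4 kb, 0.51 at 4 to 8 kb and 0.45 in the domains. The share of NC bases also covered in KMT2D-KD went over the same classes from 34.9% to 84.2%. The median highest summit went from 3.86 to 6.66-fold in NC and from 3.87 to 8.47-fold in KMT2D-KD. A wide region offers more intervals from which the highest is taken. At the lower limit of the rule, the domains just inside spanned 8005 bases near USP44, 8012 in SV2B and 8013 near PGRMC2, and the regions just outside spanned 7999 in SPIN1, 7993 in RIPOR2 and 7981 in PXN. Their KMT2D-KD coverage was 5060, 6956 and 5465 bases inside and 5803, 6922 and 4555 bases outside. There were 164 domains of 8000 to 8999 bases and 258 regions of 7000 to 7999, so no break separated domains from the next class.

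**Figure D3:**
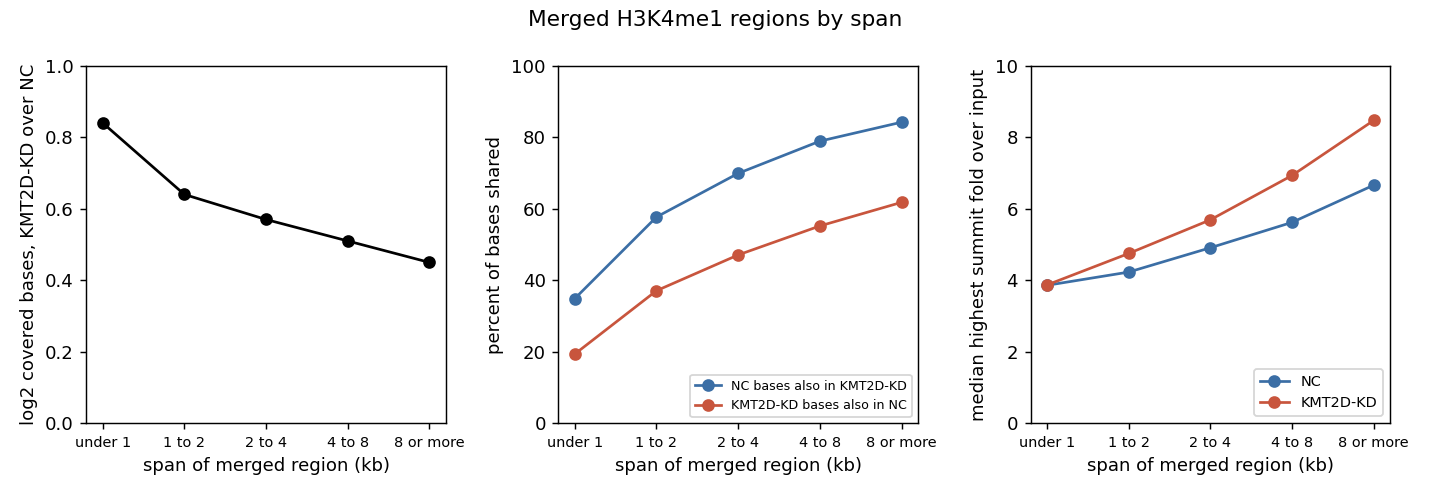
Merged H3K4me1 regions by span in kb: log2 ratio of covered bases (left), percent of covered bases shared with the other condition (middle) and median highest summit fold over input (right). From the shortest class to the domains the log2 ratio runs from 0.84 to 0.45 and the shared NC bases from 34.9% to 84.2%.

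The domains lay mostly in introns and away from 5′ ends. Midpoints were placed by the canonical transcripts of protein-coding genes. The midpoint fell in an intron of such a transcript in 284 domains (57.6%, 53.1 to 62.0), in an exon in 1 and outside them in 208. The 208 include domains that lay wholly within a coding gene record, such as those in EVL and MYPN. Protein-coding genes made up 44.4% of the genome, 65.2% of the bases in domains, 60.8% in regions of 4 to 8 kb and 55.9% in regions under 1 kb. Of the intronic midpoints, 129 (45.4%) were in intron 1, whereas intron 1 made up 24.6% of all intron bases of canonical transcripts. A midpoint in introns of more than 1 gene was given the lowest intron number, whereas the 24.6% counts every intron. The share was not computed for other H3K4me1 regions, so it is not shown to be particular to the domains. The near edge of an intronic domain lay a median of 34064 bases from the 5′ end of the host's canonical transcript. Only 17 domains (3.45%, 2.02 to 5.46) held a protein-coding 5′ end. They gave 3.32 5′ ends per Mb, against 3.89 in regions of 4 to 8 kb and 5.08 in regions under 1 kb. The value was 4.41 in all other merged regions together and 6.82 in the genome. The 18 genes included RARA, a retinoic acid receptor, the chemokine gene CCL2, IL7R and IL24 of cytokine signalling, the interferon-induced IFIT2, the giant scaffold gene AHNAK, PTGS1, a cyclooxygenase, and MVP, the major vault protein. The first base itself was covered in both conditions at 8 of the 18, IL7R, IL24, IFIT2 and PTGS1 among them, and in neither condition at another 8, RARA, CCL2 and MVP among them. AHNAK was covered at that base in NC alone and NQO2, a quinone reductase, in KMT2D-KD alone.

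Around 5′ ends in general, domains were seen at the fewest genes in the 2.5 kb just upstream (35 genes, 0.175%) and at the most between 10 and 12.5 kb downstream (81 genes, 0.404%). H3K4me1 intervals of any kind were most frequent in the first 2.5 kb downstream, at 26.5% of genes.

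**Figure D4:**
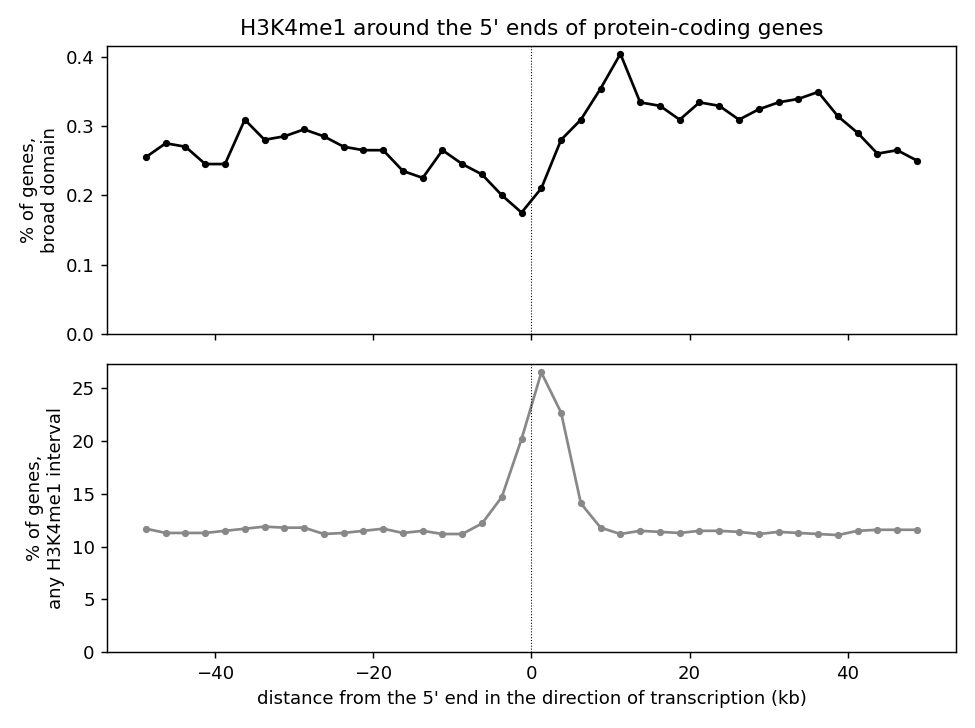
Percent of 20033 protein-coding genes with a broad domain (top) or any H3K4me1 interval (bottom) in bins of 2.5 kb, by distance from the 5′ end in kb (positive values are downstream). Domains are lowest just upstream of the 5′ end at 0.175% and highest at 0.404% downstream, while any H3K4me1 peaks at 26.5% next to the 5′ end.

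The domains overlapped 289 protein-coding genes, 41 of them in 2 or more places. The overlapped genes were long, with a median of 127 kb against 27.5 kb for all coding genes, and a longer gene has more room for a domain. TEAD1 held 5 domains, together covered over 47857 bases in NC and 53545 in KMT2D-KD. IGF1R, the receptor of insulin-like growth factor 1, also held 5, with 33894 and 41489 bases. TRIO, a guanine nucleotide exchange factor, held 4, with 30812 and 33000 bases, and AOPEP, an aminopeptidase, held 4, with 24193 and 37216. LGR4 held 3 that together were covered slightly less in KMT2D-KD, at 25573 and 24304 bases. Of all domains, 147 lay in 59 groups of 2 or more at most 100 kb apart. The groups of at least 4 were those at TEAD1, IGF1R, PTPRJ, PC and SYT12, TRIO, BASP1 and AOPEP.

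Gene lists for pathways and cell types were then read against all coding genes. Of these, 0.619% had a domain within 10 kb of the 5′ end, 2.06% within 50 kb and 1.44% overlapping the gene itself. Of 15 keratins, the intermediate filament genes of epithelia, 2 had a domain within 10 kb and 6 within 50 kb. The 6 were served by 5 domains, because keratin genes lie side by side. KRT7, a keratin of ductal epithelium, held a domain covered over 4734 bases in NC and 8925 in KMT2D-KD. Another lay 640 bases from its 5′ end, with 6475 and 7761 bases, and was also the nearest one to KRT80. The domain 4661 bases from the 5′ end of KRT81 overlapped that gene, was within 50 kb of KRT7 too, and had 4393 and 6809 bases. KRT8 and KRT18, the keratin pair of simple epithelia, shared a domain with 4410 and 7124 bases. The domain 28871 bases from KRT20 had 6394 and 6388 bases, equal between the conditions. Of 20 genes of the YAP-TEAD pathway, 2 had a domain within 10 kb, 5 within 50 kb and 5 overlapping the gene. They were TEAD1, CRIM1, the kinase gene NUAK2 and the angiomotin genes AMOTL1 and AMOTL2 within 50 kb, and PTPN14, a phosphatase that restrains YAP, in the gene. CRIM1 held 3 domains with 31127 bases in NC and 38811 in KMT2D-KD together, and AMOTL1 held 1 with 6540 and 6603. PTPN14 held 2, of which one had 6963 and 8720 bases and the other 2832 and 6083. The coverage of AMOTL1 was thus nearly equal, and that of the PTPN14 domains together was 1.51-fold higher in KMT2D-KD.

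Of 17 integrin and laminin genes, 1 had a domain within 10 kb and 4 within 50 kb. ITGA6, the integrin α6 gene, had 3097 bases in NC and 5136 in KMT2D-KD. Its partner ITGB4, with which it forms the hemidesmosome receptor, had 2 domains within 50 kb, with 7793 and 12389 bases together. Both overlapped another gene, SAP30BP. ITGB6 had 3113 and 6614. ITGB5 held 2 domains, with 4236 and 6270 bases in the one nearer its 5′ end and 6803 and 7565 in the other. Of 20 TGF-β and SMAD genes, 3 held a domain in the gene, namely the receptor gene TGFBR2 with 2499 and 4861 bases, the ligand gene TGFB2 with 3426 and 6557, and the co-receptor gene TGFBR3 with 2 domains of 5410 and 6509 and of 2920 and 5856 bases. Of 22 receptor kinase and MAPK feedback genes, the ERK phosphatase gene DUSP1 had a domain within 10 kb, with 4291 and 6695 bases. Another domain, 124211 bases from the 5′ end of the receptor gene MET, overlapped the far end of that gene and reached past it. Over its whole span it had 4252 and 5549 bases. Receptor kinase genes outside this list also held domains, among them IGF1R with the 5 given above and DDR2 with 4880 and 7822 bases. Of 22 Wnt genes, LGR4 had a domain within 10 kb, with 6029 and 7315 bases, besides the 2 further inside the gene. FZD10, a Wnt receptor gene outside that list, had a domain 20832 bases from its 5′ end, with 4005 and 6628 bases. Of 24 epithelial transcription factors, none had a domain within 10 kb and 2 within 50 kb, BHLHE40 with 4380 and 6955 bases and GRHL2, a regulator of epithelial genes. GRHL2 had 2 domains at that distance, one with 2622 and 5043 bases and a wider one with 11446 and 13585. RUNX1 held 1 in its gene, 1138419 bases from its 5′ end, with 1732 and 4365 bases.

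Of 24 pancreatic and endoderm lineage factors, 1 had a domain within 50 kb. That gene was RBPJL, a subunit of the acinar PTF1 complex, at a distance of 29090 bases. The domain itself lay in intron 1 of another gene, SDC4, 1040 bases from the SDC4 5′ end. It was covered over 7345 bases in NC and 9628 in KMT2D-KD. Of 17 acinar enzyme genes, CELA2A, an elastase, had its 5′ end in a domain of 2776 and 5215 bases, which was also the nearest to CTRC. None of the lists of AP-1 and MAF factors, EMT factors and cadherins, junction and polarity genes, H3K4 methylation enzymes, endocrine markers, fibroblast markers or leukocyte markers had a gene with a domain by any of the 3 distances. The lists are short and do not hold every gene of their kind, and 1 domain changes a share by several percent. Domains did overlap the cadherin gene CDH13, the polarity kinase gene PRKCI and the interleukin receptor gene IL7R, all outside the lists. PAGR1, which encodes a partner of the KMT2D methyltransferase, was also outside them and was overlapped by the MVP domain. An empty list thus does not show that genes of that kind lacked domains.

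Motif matches differed between the covered and the uncovered stretches of the domains. The 3189 uncovered stretches had a median length of 345 bases and the same GC content, 43.8%, as the covered ones. AP-1 (TGANTCA) was found at 6.61 sites per 10 kb in uncovered stretches and 4.13 in covered ones. In windows without H3K4me1 lying 10 to 20 kb from a domain there were 3.03 sites per 10 kb, with a GC content of 42.6%. In tiles of 200 bases, so that lengths were equal, 12% of 4881 uncovered tiles held AP-1, against 7.71% of 18870 covered tiles and 5.63% of the flanking tiles. Over whole regions the share was 8.64% in the domains and 9.29% in regions of 4 to 8 kb. The core read by EBF factors (CCCNNGGG, the same on both strands) was in 5.49% of uncovered, 3.71% of covered and 3.27% of flanking tiles. The FOXA sequence (TGTTTAC, both strands) was in 3.85%, 3.09% and 2.74%, and the TEAD sequence (ACATTCC, both strands) in 3.83%, 3.28% and 2.8%. Sequences for GATA factors (AGATAAG, both strands) and for GRHL factors (AACNGGTT, both strands) went the other way, with 2.75% and 1.15% of uncovered against 3.41% and 1.58% of covered tiles. The RUNX (TGTGGTT) and ETS (CCGGAAG) sequences, on both strands, were in 4.06% and 0.615% of uncovered and in 3.89% and 0.514% of covered tiles. No sequence searched contains another, although matches to different ones can overlap. CpG pairs were more frequent in uncovered stretches, at 1.3 per 100 bases against 0.945, and their part in the difference was not tested. A match to these letters does not show that the factor was bound.

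**Figure D5:**
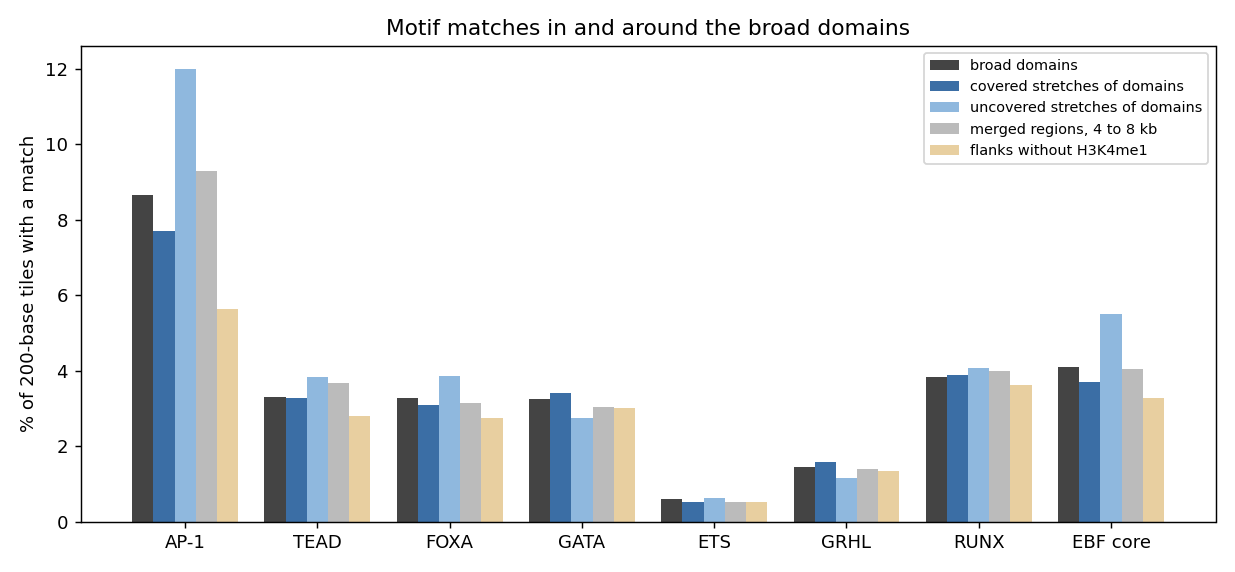
Percent of 200-base tiles holding a match to each motif in the domains, their covered and uncovered stretches, merged regions of 4 to 8 kb and flanks without H3K4me1. Bars start at 0 and have no replicate error; AP-1 stands at 12% in uncovered and 7.71% in covered tiles.

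The domains were also read against the KMT2D and EBF2 lists. Of the 493 domains, 3 (0.609%, 0.126 to 1.77) overlapped an interval of any of the 4 lists, and these lists were short, with 238 to 318 intervals. With the 4 lists merged, the domains held 0.554 regions per Mb, against 0.134 in H3K4me1 regions of 4 to 8 kb, 0.343 at 2 to 4 kb, 0.917 at 1 to 2 kb and 7.05 under 1 kb. The 0.554 rests on 3 regions and the 0.134 on 2. The domain 84263 bases from the forkhead gene FOXF2 held an interval of all 4 lists, the first domain of TRIO one of KMT2D in KMT2D-KD, and the domain 16189 bases from TMEM132D one of KMT2D in KMT2D-KD and one of EBF2 in NC. The sequences under these intervals are shown, on the plus strand of hg38, because each is a simple repeat.
domain near FOXF2, chr6:1478153-1478396: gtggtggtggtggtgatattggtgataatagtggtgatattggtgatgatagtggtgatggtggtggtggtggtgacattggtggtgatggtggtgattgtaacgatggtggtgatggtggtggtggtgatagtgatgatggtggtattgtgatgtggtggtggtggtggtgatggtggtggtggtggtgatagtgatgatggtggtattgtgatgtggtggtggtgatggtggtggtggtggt
TRIO domain, chr5:14157435-14157597: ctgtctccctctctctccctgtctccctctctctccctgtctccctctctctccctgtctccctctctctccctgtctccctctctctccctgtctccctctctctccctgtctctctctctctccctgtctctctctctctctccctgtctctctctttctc
domain near TMEM132D, chr12:129925108-129925281: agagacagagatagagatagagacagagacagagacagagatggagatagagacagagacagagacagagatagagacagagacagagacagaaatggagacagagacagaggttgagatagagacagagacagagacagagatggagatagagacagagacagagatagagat
Of all words of 12 bases in these 3 sequences, 72.1%, 96.7% and 79.1% occurred more than once in the same sequence. How reads from such repeats were placed was not stated, and its part in these intervals was not tested.

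Input background and chromosome were uneven. The background recovered from the intervals was at least 1.5 times the lowest of the list, in both lists, in 71 domains (14.4%), against 11.9% of 17215 other regions. Of these 71, 20 were on chromosome 5 and 18 on chromosome 11, the chromosomes of BASP1, TRIO and LGR4. The domain nearest POU5F1B on chromosome 8 had the highest background, 5.34 for NC and 4.14 for KMT2D-KD. The log2 ratio of covered bases was 0.32 in the 71 domains and 0.47 in the others. Per 100 Mb, domains were most frequent on chromosome 11, at 30.4. Per 1000 merged regions, chromosome 8 had 11.4 domains and chromosome 11 had 11.3. There was 1 domain on each of chromosomes 18, 21 and X. DNA copy number was not measured here, and its part in where the domains lie was not tested.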

How the data were processed

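ChIP-seq of H3K4me1, KMT2D and EBF2 in NC and KMT2D-KD SW1990 cells was analysed from interval lists, 1 library per target and condition. Per the study's methods, low-quality and adapter-containing reads were dropped and the remainder aligned with bwa. The submitters' processing notes name BWA, MACS2, HOMER and hg38, and their versions and settings are not given in the sources used here. The deposited lists give for each interval a fold enrichment over input at its summit, which is a ratio, and a −log10 p-value and −log10 q-value, all made by the authors. The fold was used for summit heights, and the −log10 values for recovering depth and for 2 alternatives.

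Intervals of both H3K4me1 lists were merged within 1000 bases and kept from 8000 bases. Fragments and background were recovered by solving fold = (fragments + 1) / (background + 1) with the Poisson p-value, to within 0.001 in −log10 p. Genes were from GENCODE release 44, and a 5′ end is the first base of the gene record unless the canonical transcript is named. Coordinates count from 1. Shares have exact binomial (Clopper-Pearson) 95% intervals. Interval code was tested on simulated data. No test between conditions was possible with 1 library each. Domains named were the 10 widest, the 5 with the largest difference in each direction, the 3 on either side of the span limit, those overlapping a KMT2D or EBF2 interval, and those near listed genes, and others named were chosen after their values were seen. The domains, the gene lists, the motifs and the domains drawn were chosen with earlier results of these data known. Alternatives were other merge distances, spans, q-value limits, list sizes, windows, gene sets and folds.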

Additional observations from a re-analysis of the deposited data

How the results depend on the processing

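With 1 library per condition no replicate could be left out, and no paired analysis was possible because no group had more than 1 sample. Of 78 recomputed values, 34 stayed within 1.5 times (counts) or the 95% interval (shares, medians, log2 ratio) of the reported value, 44 moved and 0 reversed. For the log2 ratio, the interval was that of the median ratio per domain, shifted onto the pooled ratio. The 34 include the values of a filter that removed no domain and so could not change them. KMT2D-KD covered more bases than NC under every alternative run.

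The number of domains was 157 with a merge distance of 500 bases, 1257 with 2000 bases, 1188 from a span of 6000 bases, 228 from 10000 bases, and 137 with −log10 q of at least 5. The log2 ratio of covered bases was 0.34 and 0.52 with merge distances of 500 and 2000 bases, 0.63 with −log10 q of at least 5, and 0.35 when the lists were reduced to equal numbers by −log10 q. Domains with at least 1.5-fold more KMT2D-KD bases numbered 26 and 589 with merge distances of 500 and 2000 bases, 467 and 86 from spans of 6000 and 10000 bases, 67 with −log10 q of at least 5, 99 for lists of equal number, and 52 passed 2-fold. Domains with at least 1.5-fold more NC bases numbered 0 with 500 bases, from 10000 bases, at −log10 q of at least 5 and at 2-fold, 9 with 2000 bases, and 3 from 6000 bases and for lists of equal number. A protein-coding 5′ end lay in 1.91% and 5.65% of domains with merge distances of 500 and 2000 bases, and a 5′ end of any annotated gene in 18.9%. Genes with a domain within 10 kb made up 0.185% and 1.83% with 500 and 2000 bases, 1.46% and 0.295% from 6000 and 10000 bases, 0.16% at −log10 q of at least 5, 0.459% for lists of equal number, and the share was 2.06% within 50 kb and 0.0899% with the 5′ end inside. The median highest summit in NC was 7.02 and 6.16-fold with 500 and 2000 bases, 6.31 and 6.79 from 6000 and 10000 bases and 7.13 at −log10 q of at least 5. In KMT2D-KD it was 9.16 and 7.85, 7.97 and 8.81, and 9.49 in the same order. The changed numbers of domains follow from wider or stricter rules by construction, and the cause of the other changes was not tested. Leaving out domains within 100 kb of undetermined bases removed none, and leaving out the 71 of high background, an alternative chosen after seeing the data, moved none of these values.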
